A study of Rattus norvegicus with 16 samples.

Results

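In whole kidneys of rats with deoxycorticosterone acetate (DOCA) and salt excess, 123 of 32623 genes had low mRNA levels in DOCA rats and control levels in finerenone-treated rats. These genes were chosen by their measured values in the control, DOCA and finerenone libraries. A gene was a member when its control mean was at least 2, its DOCA mean lay at least 1 below control, and its finerenone mean lay within 0.25 of control. The scale was log2(CPM + 1), in which CPM are counts relative to a library total set to 1000000, after scaling by trimmed mean of M values (TMM). Spironolactone libraries and DOCA replicate 4 had no part in the choice of genes, although all 16 libraries entered the scaling. The levels in those 5 libraries were thus free of the rule, although the control means they are read against were not. The fall in DOCA and the return in finerenone describe how the genes were picked.

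Bulk RNA-Seq was available for 4 groups of 4 libraries each, all from Sprague-Dawley rats with an age of 6 weeks in the labels. Control rats had a sham operation. DOCA rats had a kidney removed and then received DOCA, salt in the drinking water and vehicle by gavage. Finerenone and spironolactone rats had the same operation, DOCA and salt, and were given the drug in place of vehicle. The daily doses of both drugs were not equal, so the comparison between them is of regimens. Kidneys for these libraries came from the later of the study's collections, after 6 weeks of treatment, and the labels give no collection time of their own. Treatment alone lasted that long, so the age of 6 weeks in the labels cannot be the age of the rats at collection. A DOCA and a spironolactone library were treated as outliers in the study, taken here to be replicate 4 of each group, because the supporting values cover the other 3. The fit of all groups therefore used 14 libraries, and replicate 4 of both groups was read separately.

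DOCA is a precursor of aldosterone, and in this model it serves as the mineralocorticoid itself. Mineralocorticoids act through the mineralocorticoid receptor to retain sodium in the distal nephron. DOCA with salt raises blood pressure and damages the kidney. Finerenone is a nonsteroidal and spironolactone a steroidal antagonist of this receptor. In bulk tissue, fewer cells of a type and less RNA per cell cannot be told apart, and this holds for every value given here.

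Spironolactone replicate 4 had 10932887 counts, and the other 15 libraries had from 7063146 to 8056935. A count of 3, taken as the floor, corresponded to between 0.248 and 0.484 CPM and covers counting error only. The labels give each library a code of 2 numbers, and no first number was shared between groups, so groups could not be compared within it. The tables pair no gene names with the Ensembl IDs, and 0 IDs matched a name in the RefSeq gene table. Functions, cell type markers, pathway lists, positions and promoter sequences of the members are therefore not reported, and the tissue label was not checked against markers.

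Of 11373 genes with a control mean of at least 2, 378 had fallen by at least 1 in DOCA rats. The 123 members were 32.5% of these, and 244 of the other 255 stayed below control by more than 0.25 in finerenone rats while 11 lay above it. All 123 members passed the filter on low counts, beside 14628 genes in all. Most members were abundant, although the rule itself left out genes with a control mean under 2. The mean TPM in control kidneys, a measure of transcript abundance per length, had a median of 112.6 over the members and a range from 0.873 to 19200. The median was 7.08 over all genes tested, which did not have to meet that minimum, and 41.1 over the other 255 fallen genes, which did. There were 15 members under 10 TPM, 43 from 10 to 100 TPM, 55 from 100 to 1000 TPM and 10 at or above 1000 TPM. At least 100 counts were found in every library for 95 members, and 3 members had 3 or fewer counts in some library. No member was absent from DOCA kidneys. Their mean TPM in DOCA rats ranged from 0.163 to 12650 with a median of 71.7, and 0 members had a count of 0 in any library.

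The limits of the rule cut through a continuous range. At the limit on the fall, the nearest members had differences of -1.01 and -1.01 and the nearest genes outside -0.995 and -0.994, and 23 members lay within 0.05 of this limit. At the lower limit on finerenone, the nearest members lay at -0.249 and -0.247 and the nearest genes outside at -0.251 and -0.254. The finerenone limit was reached by many more genes from below than from above. At its upper limit the members lay at 0.249 and 0.206 and the genes outside at 0.297 and 0.299. The control means nearest to 2 were 2.07 and 2.11 inside and 1.78 and 1.36 outside. Finerenone means were below control in 105 members and above it in 18, with a median difference of -0.13, where 7544 of 14628 genes tested were below. This depended on the scaling. On log2(TPM + 1) 67 members were below control, with a median of -0.019, and by library size alone 77 were, with a median of -0.044. The rule itself held the TMM-scaled differences within 0.25.

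The median member was then followed through each library as its difference from the control mean on log2(CPM + 1). In control libraries 1 to 4 this median was 0.01, 0.04, -0.09 and 0.04. In the 3 DOCA libraries of the rule it was -1.14, -1.11 and -1.31. In finerenone libraries 1 to 4 it was -0.08, -0.12, -0.13 and -0.15. Control and finerenone libraries thus sat near 0 and the DOCA libraries more than 1 lower, which the rule required.

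In libraries the rule did not use, the members were low in both remaining conditions. DOCA replicate 4 had a median of -1.82, lower than any other library, and spironolactone libraries 1 to 4 had medians of -1.11, -1.14, -0.79 and -0.96. The median of all genes tested stayed between -0.02 and 0.03 in every library. DOCA replicate 4 lay below every control library in 122 of 123 members, where 35.1% of all genes tested did so. It was the lowest of the 4 DOCA libraries in 98 members, and the remaining member that overlapped control is described with the single genes.

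**Figure D1:**
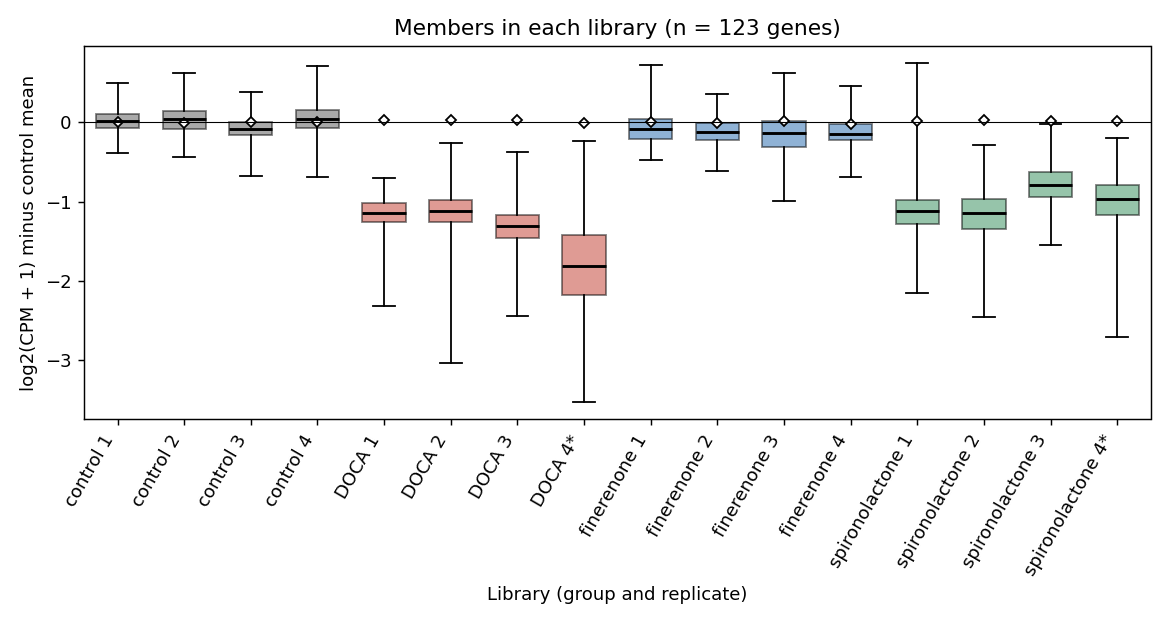
Difference of each member from its control mean on log2(CPM + 1), by library, as boxes over the 123 members with the quartiles, the median line and whiskers to the lowest and highest member; open diamonds mark the median of all genes tested, and asterisks mark the libraries set aside. Medians in spironolactone lie between -1.14 and -0.79 and the median in DOCA replicate 4 is -1.82. Diamonds stay near 0, which TMM scaling favours.

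To read the groups in libraries that did not choose the genes, the rule was applied again without 1 of its 11 libraries at a time, and the genes then found were read in the library left out. This check was chosen after the data were seen. Between 109 and 138 genes were found without a finerenone library, and their medians in the library left out were -0.11, -0.15, -0.20 and -0.16 for replicates 1 to 4. Of these genes, 70.6%, 69.7%, 52.2% and 66.7% lay within 0.25 of control in that library. The same share over all genes tested was not computed by library. By group mean, finerenone minus control had quartiles of -0.159 and 0.175 over all genes tested, so most genes lay within 0.25. In left-out DOCA libraries 1 to 3 the medians were -1.09, -1.08 and -1.30, with 64.1%, 59.4% and 86.5% of genes at or below -1. Left-out DOCA libraries were thus near -1, where 400 of 14628 genes tested had a DOCA group mean at or below -1. Left-out finerenone libraries were near control, as most genes tested were by group mean. The control group still took part in the choice. For comparison, left-out control libraries had medians from -0.08 to 0.04, with 67.4% to 74.6% of genes within 0.25.

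Single genes show the pattern that the medians summarise. The genes with the 2 largest falls are given by ID, and 2 further members were picked after their values were seen. The gene with the largest fall was ENSRNOG00000037307. Its CPM was 11.43, 6.795, 8.949 and 10.01 in control libraries 1 to 4 and 1.034, 1.152, 2.247 and 1.457 in DOCA libraries 1 to 4. In finerenone libraries 1 to 4 it was 15.71, 10.12, 5.867 and 8.011, and in spironolactone libraries 1.501, 1.448, 2.767 and 4.217. Every DOCA and spironolactone library was below every control and finerenone library. For this and the next genes the rule favours such a gap for DOCA libraries 1 to 3. Only the spironolactone libraries and DOCA replicate 4 had no part in the choice. Spironolactone rats had 1.91 ± 0.747 CPM (SD, n = 3), compared with 9.30 ± 1.95 in control rats (SD, n = 4) and 9.93 ± 4.23 in finerenone rats (SD, n = 4). The log2 fold change was -2.28 ± 0.37 (SE) in spironolactone vs control and 2.37 ± 0.37 (SE) in finerenone vs spironolactone, and edgeR gave adjusted p of 0.000133 and 0.000374.

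ENSRNOG00000013950 had the next largest fall. Its CPM was 9.555, 12.17, 11.36 and 9.36 in control libraries 1 to 4, and 2.068, 3.2, 1.124 and 0.607 in DOCA libraries 1 to 4. Finerenone libraries 1 to 4 had 12.83, 8.533, 16.84 and 11.34 CPM, and spironolactone libraries 2.502, 3.007, 5.053 and 2.067 CPM. The DOCA and spironolactone libraries were again below all others, and DOCA replicate 4 was the lowest of the 16, with 5 counts. On the log2 scale spironolactone rats were at -1.59 ± 0.31 (SE) relative to control (edgeR adjusted p of 0.000664) and 1.81 ± 0.31 (SE) below finerenone rats (edgeR adjusted p of 0.000698). They were at 0.74 ± 0.36 (SE) relative to DOCA, with a 95% interval from -0.03 to 1.502 (edgeR adjusted p of 1).

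The most abundant member had 19200 ± 5310 TPM (SD, n = 4) in control kidneys. Its CPM was 23430, 24260, 23570 and 38410 in control libraries 1 to 4, and 12230, 16350, 9804 and 11730 in DOCA libraries 1 to 4. Finerenone libraries 1 to 4 had 27380, 32380, 22610 and 26420 CPM, and spironolactone libraries 15780, 11430, 14390 and 9778 CPM. Here too the control and finerenone libraries lay above the DOCA and spironolactone libraries without overlap. Its log2 fold change was -0.98 ± 0.20 (SE) in spironolactone vs control and 0.97 ± 0.20 (SE) in finerenone vs spironolactone, with edgeR adjusted p of 0.00152 and 0.0043. On log2(TPM + 1) the first of these was -0.46 with a limma adjusted p of 0.0655, so that call depended on the scale. With libraries summed that share the first code number, finerenone vs spironolactone had an edgeR adjusted p of 0.0511.

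The member that was highest in spironolactone relative to control did not follow the others. Its CPM was 9.398, 12.64, 4.83 and 8.069 in control libraries 1 to 4, and 4.481, 0.128, 6.18 and 6.918 in DOCA libraries 1 to 4. DOCA replicate 2 held 1 count of this gene, and DOCA replicates 1 and 3 were only -0.76 and -0.37 from control on the log2 scale. Its membership therefore rested on 1 library, and it was the member in which DOCA replicate 4 overlapped control. Spironolactone libraries 1 to 4 had 7.633, 5.568, 7.098 and 6.532 CPM, within the control range. Neither spironolactone vs control (edgeR adjusted p of 0.654) nor finerenone vs spironolactone (edgeR adjusted p of 0.921) passed the test.

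**Figure D2:**
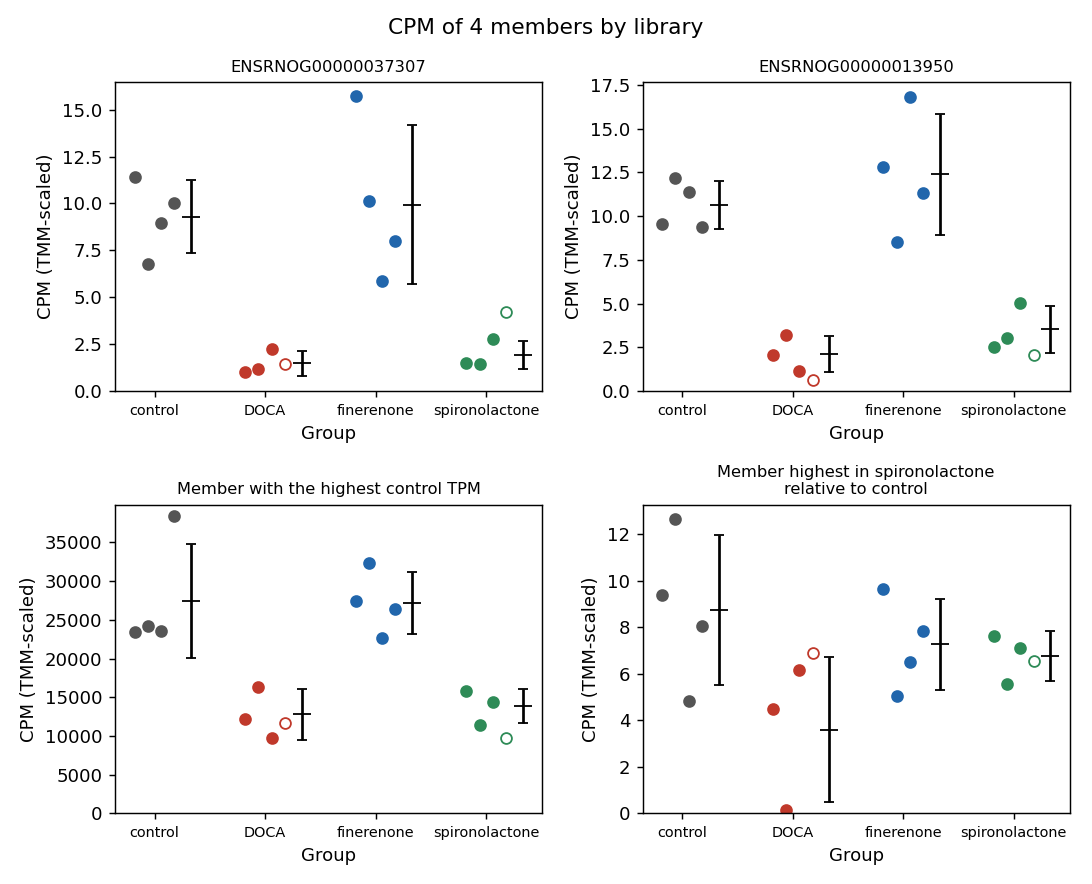
CPM of 4 members by library and group, with points for libraries in order of replicate, open points for the libraries set aside, and bars for the mean and SD of the filled points. In 3 panels all DOCA and spironolactone libraries lie below all control and finerenone libraries, which the rule favours for DOCA libraries 1 to 3. In the panel of the member highest in spironolactone the groups overlap and 1 DOCA library is at 0.128 CPM.

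The share of each library's TPM that the members held was read as a sum. All 123 members together took 5.62% ± 0.718 of control libraries (SD, n = 4) and 5.74% ± 0.0894 of finerenone libraries (SD, n = 4). They took 3.49% ± 0.35 of DOCA (SD, n = 3) and 3.92% ± 0.385 of spironolactone libraries (SD, n = 3). DOCA replicate 4 had 2.57% and spironolactone replicate 4 had 3.61%. The lowest control or finerenone library had 5.14% and the highest DOCA or spironolactone library 4.33%. The rule favours this gap between DOCA libraries 1 to 3 and the control and finerenone libraries. Only the spironolactone libraries, with 3.56% to 4.33%, and DOCA replicate 4 had no part in the choice of genes. Without the most abundant member the shares were 3.70%, 3.69%, 2.22% and 2.55% in control, finerenone, DOCA and spironolactone rats.

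**Figure D3:**
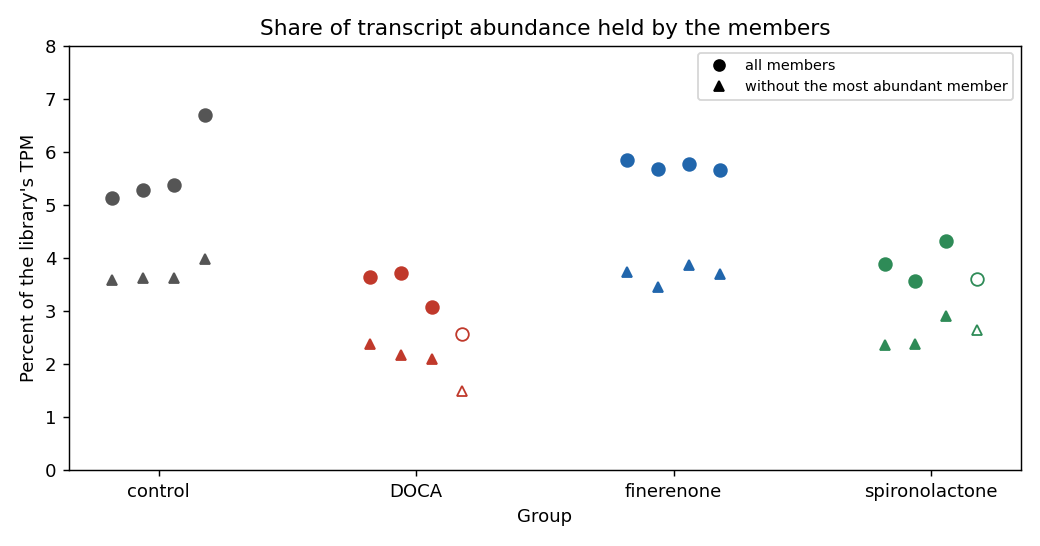
Percent of the TPM of each library held by the 123 members (circles) and by the members without the most abundant (triangles), by group, with open symbols for the libraries set aside. Control and finerenone circles start at 5.14% and DOCA and spironolactone circles end at 4.33%. The rule favours this gap, and only spironolactone libraries and DOCA replicate 4 had no part in the choice of genes.

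The position of spironolactone rats was tested first against control, which asks whether these genes were still low under the steroidal antagonist. edgeR's quasi-likelihood test called 116 of 123 members lower in spironolactone than in control rats, where 9.88% of all genes tested were called lower. A call required a Benjamini-Hochberg adjusted p under 0.05 over all genes and a log2 fold change of 0.5 or more in size. The median log2 fold change of the members was -1.02, with a median SE of 0.14, and that of all genes tested was 0.02. No member was called higher, and the 95% interval lay wholly below 0 in 121. For comparison, 3123 of 14628 genes tested were lower at an unadjusted p under 0.05 in the same test. All 4 spironolactone libraries lay below every control library in 113 members, where 17.1% of all genes tested showed this pattern. The control libraries took part in choosing the genes, so the size of this difference is in part set by the choice. On log2(TPM + 1), where the median of all genes tested shifts, limma called 59 members lower, and 1.73% of all genes tested.

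The calls against control were also read by abundance. All 10 members at or above 1000 TPM were called lower, as were 54 of 55 from 100 to 1000 TPM, 40 of 43 from 10 to 100 TPM and 12 of 15 under 10 TPM. Over all genes tested 9.88% were called lower, and this share was not computed by class of abundance. The median difference of spironolactone from control in these classes was -0.97, -0.99, -1.06 and -1.02 on log2(CPM + 1). The 7 members without a call had log2 fold changes from -1.42 to -0.10 with SE from 0.23 to 0.56, and adjusted p from 0.0532 to 0.891. Their median SE of 0.45 was larger than that of all members, 0.14. Of the 10 members with the largest falls in DOCA, 9 were called, and all 10 had every spironolactone library below every control library. That pattern was shown by 17.1% of all genes tested. The fall that ranked these 10 was read against the same control libraries, which favours both outcomes.

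Spironolactone was then compared with DOCA rats to ask how far these genes had moved from the untreated level. edgeR's quasi-likelihood test called 0 of 123 members higher and 0 lower, and 0% of all genes tested. Of the members, 19 had an unadjusted p under 0.05, all of them higher in spironolactone, where 2.04% of all genes tested were higher at that p, and none had an adjusted p below 0.415. DESeq2 called 1 member higher, with a log2 fold change of 0.76 and a DESeq2 adjusted p of 0.00835. It called 6 of all genes tested higher (0.041%), and limma-voom called 0 members and 0 genes. The log2 fold changes had a median of 0.19 with a median SE of 0.15, and 109 of the members had a positive value. The genes were chosen for low values in the DOCA libraries of this comparison, which favours a rise in spironolactone, so neither the sign nor the size of these values is independent of the rule. Their 95% intervals lay within -1 to 1 for 107 members and within -0.5 to 0.5 for 55. Rises near the median were not detectable gene by gene with 3 libraries in each group.

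By means on log2(CPM + 1), 106 members were above and 17 at or below DOCA in spironolactone rats, where 51.9% of all genes tested were above. All values of this kind are read against DOCA means that the rule required to be low, and are given as a description. The difference between spironolactone and DOCA means had a median of 0.18 and a range from -0.20 to 1.12. In 118 members the spironolactone mean was nearer to the mean of DOCA replicates 1 to 3 than to control. The spironolactone fall had a median of 0.846 of the fall in these DOCA libraries, as a ratio of log2 differences from control. Every spironolactone library was above each of DOCA libraries 1 to 3 in 13 members, where 3.7% of all genes tested showed this. These 13 were nonetheless all called lower than control, with log2 fold changes from -1.23 to -0.54. Compared with DOCA replicate 4, the library lowest in the members, the spironolactone mean was higher in 113 members, where 7401 of 14628 genes tested were higher. The median difference over all members was 0.76. Relative to the fall in DOCA replicate 4, which the rule did not use, the spironolactone fall had a median ratio of 0.566, with quartiles at 0.469 and 0.694.

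Spironolactone libraries also differed among themselves. Replicate 3 was the highest of the 4 in 81 members and the lowest in 2, whereas replicates 1 and 2 were each the lowest in 52. The SD between spironolactone libraries 1 to 3 had a median of 0.27 over the members, beside 0.17 over all genes tested. In control and finerenone rats the same median was 0.15 and 0.13, beside 0.21 and 0.21 over all genes. The rule favours genes with little spread in control and finerenone rats, so these last values are a description only. Without replicate 3, the median difference from control over the members was -1.11, compared with -1.02 with it.

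**Figure D4:**
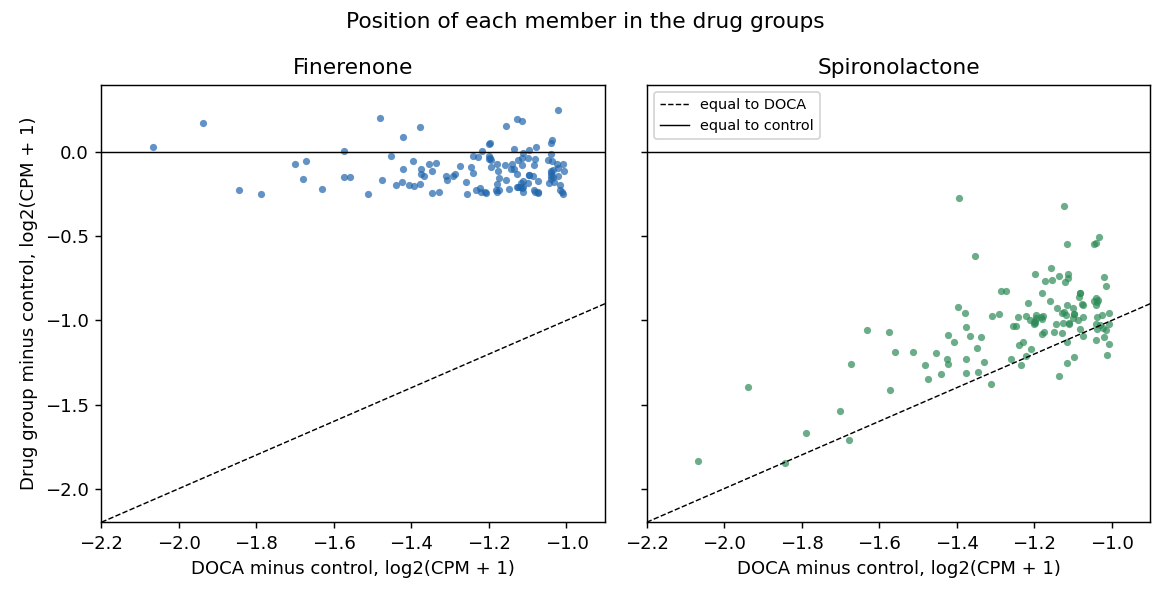
Group mean minus control mean of each member on log2(CPM + 1), in finerenone and in spironolactone (replicates 1 to 3) on the vertical axis and in DOCA (replicates 1 to 3) on the horizontal axis. Finerenone points lie within 0.25 of the control line because the rule required it, and 118 of 123 spironolactone points are nearer to the DOCA line than to the control line. The rule also required the DOCA means to be low.

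Finerenone and spironolactone rats were compared directly. edgeR's quasi-likelihood test called 109 of 123 members higher in finerenone rats, where 4.66% of all genes tested were called higher, and no member lower. The median log2 fold change was 0.91 with a median SE of 0.14, and all members had a positive value, from 0.06 to 2.37. All 4 finerenone libraries were above all 4 spironolactone libraries in 109 members, where 11.6% of all genes tested showed this. The finerenone libraries helped to choose these genes, which favours a high value there, and genes that spironolactone alone returned to control were not sought. On log2(TPM + 1), limma called 59 members higher, and 1.01% of all genes tested. In 107 members every spironolactone library was below every control and every finerenone library, where 9.14% of all genes tested showed this.

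This test and the test against control share the spironolactone libraries, so their calls are not independent of each other. The 14 members without a call against finerenone had log2 fold changes from 0.06 to 1.39, SE from 0.11 to 0.56 and adjusted p from 0.0063 to 0.943. Of these, 1 passed on the adjusted p and missed the limit on size. Members that came nearest to control in spironolactone were few. In 5 members the spironolactone mean was nearer to control than to DOCA, with differences from control between -0.62 and -0.27, and 2 of these were still called lower than control and higher in finerenone.

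**Figure D5:**
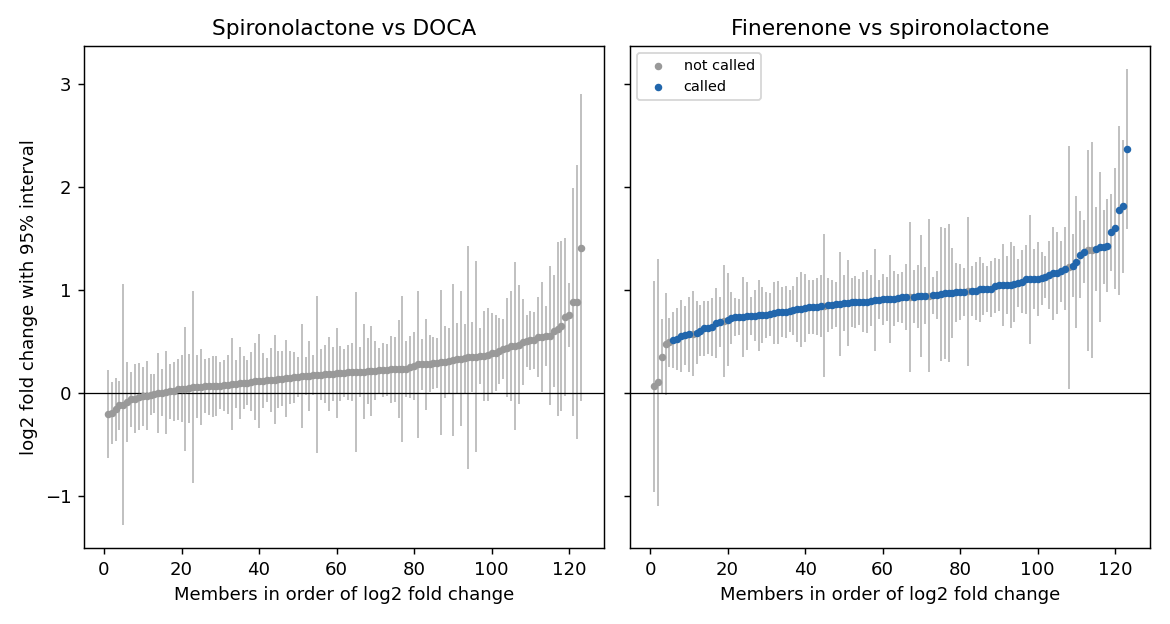
Log2 fold change of the 123 members with 95% intervals (lines), ordered by size within each panel, in spironolactone vs DOCA and finerenone vs spironolactone, with blue points for called members. No point is called in the first panel, and 109 are called in the second, where all points are above 0.

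The remaining 255 genes that fell in DOCA but did not meet the finerenone limit were read beside the members. Of these, 193 were called lower in spironolactone than in control, where 9.88% of all genes tested were. In finerenone vs spironolactone 91 were called higher, where 4.66% of all genes tested were, and 0 were called in spironolactone vs DOCA. The 255 genes had a median difference from control of -1.18 in spironolactone, compared with -1.02 for the members. In DOCA replicate 4 it was -1.97 compared with -1.82. Their median control TPM was 41.1 compared with 112.6. These differences between the sets were not tested. The finerenone limit of the rule divided these genes from the members, which favours fewer calls for them in finerenone vs spironolactone. Control libraries took part in choosing both sets, which favours calls against control in each.

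The choice of genes depended on the scaling of the libraries. The 50 most abundant genes held from 29.4% to 31.5% of counts in control and from 27.8% to 32.6% in finerenone libraries, but from 22.6% to 25.8% in DOCA and from 22.4% to 25.5% in spironolactone libraries. TMM factors moved with this share, and its part in the result was not tested. They ran from 0.855 to 0.973 in control and finerenone and from 1.07 to 1.14 in DOCA and spironolactone libraries. On log2(TPM + 1) the median of all genes tested was 0.42 higher in DOCA than in control, and the median of the members -0.67, compared with 0.03 and -1.18 after TMM. Relative to the median of all genes, the members lay at -1.09 on TPM, -1.16 by library size alone and -1.21 after TMM in DOCA, and at -0.92, -0.996 and -1.04 in spironolactone. Their position relative to other genes thus moved little with the scale, although the rule found 37 genes by library size alone and 16 on TPM, of which 28 and 8 were among the 123. When the median of all genes tested was set equal on TPM, a setting added after the data were seen, it found 105, of which 84 were among the 123.

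Properties that the rule did not use were read from the tables. A count that was not whole, as given by reads shared between genes, occurred in at least 1 library for 9 members (7.32%) and for 1374 of all genes tested (9.39%). The effective length that the ratio of count to TPM implies, relative to a median of 1 over tested genes, had a median of 0.726 over the members, with quartiles at 0.465 and 0.984, and of 0.985 over the 13162 genes for which it could be computed. Neither was tested.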

How the data were processed

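RNA from whole kidney was sequenced as polyadenylated RNA. Per the labels and the submitters' processing notes, the authors used Trim Galore 0.4.5, STAR 2.7.3a and RSEM with rn6 (Rnor_6.0). The deposited estimated counts (expected counts per gene, not normalized, 3.14% not whole) were rounded. The deposited TPM values were scaled by the authors for length and library total.

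Members and lists were chosen with earlier results of these data known. CPM used TMM factors over 16 libraries. Tests used edgeR 4.0.16 under R 4.3.3 for genes whose count exceeded 4 in 3 or more of 14 libraries (robust quasi-likelihood F test, 4 groups in 1 fit, 3 comparisons), with Benjamini-Hochberg adjustment. The common biological coefficient of variation was 0.165. SE was the absolute log2 fold change divided by the root of F. The scripts were tested on simulated data. Alternatives covered scaling, filters, DESeq2 1.42.0, limma 3.58.1, fits of 2 groups, summed libraries and single libraries left out. Libraries of 1 group differed beyond sampling noise in all 24 pairs (chi-square per gene from 4.54 to 39.9). The labels do not state that libraries came from separate animals, so p-values cover the spread between libraries.

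The named genes rule took the largest falls, the highest control TPM and the extremes in spironolactone. Without gene names, only 2 IDs are printed, and 2 further members were picked from these lists after their values were seen.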

Additional observations from a re-analysis of the deposited data

Results flagged for a closer look

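Of 28 sets of 4 libraries examined for a distant library by Dixon's ratio, 3 had one, where chance gives about 1 in 20. All 3 were control replicate 4, in the level of the most abundant member and in the share of TPM with and without that member. That member had 38400 CPM in control replicate 4, compared with 23400 to 24300 CPM in the other control libraries. The members held 6.69% of TPM in control replicate 4, compared with 5.14% to 5.38% in the others, and 3.98% compared with 3.59% to 3.62% when the most abundant member was left out. Without control replicate 4 the rule found 117 genes, of which 99 were among the 123.

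Both drug groups received DOCA and salt, and they were compared in the members by a direct test. edgeR's quasi-likelihood test called 109 of 123 members higher in finerenone than in spironolactone rats, where 4.66% of all genes tested were called higher. The median log2 fold change of the members was 0.91. Finerenone libraries took part in choosing the genes, which favours this direction, and genes that spironolactone alone returned to control were not sought.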

How the results depend on the processing

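The number of genes found by the rule was 123. It was 37 by library size alone, 16 on TPM, 231 with finerenone within 0.5 and 44 with finerenone within 0.1, and from 96 to 143 without 1 of its 11 libraries. With all 4 DOCA libraries it was 184, of which 122 were among the 123. The count of members called lower in spironolactone vs control, 116 in the reported fit, was 59 with limma on log2(TPM + 1), 61 with limma on log2(TPM + 0.1) and 67 with a log2 fold change of 1 or more in size, and 108 to 118 without 1 library. For members higher in finerenone vs spironolactone, 109 in the reported fit, these counts were 59, 60 and 36, and 97 to 112 without 1 library. The stricter limit on size lowers a count by construction, and for TPM the cause was not tested. Members called higher in spironolactone vs DOCA were 0, except for 1 with DESeq2. The median difference of spironolactone from control was -0.71 by library size alone. Under the other scalings, filters, tools and sets of libraries, the counts of calls stayed within 1.5 times. The replicate block gave 116, 0 and 109 calls. Of 19 same-numbered pairs, 5 had a correlation of deviations over 0.1 (range -0.09 to 0.19). No values for pairs with different numbers are given beside them, so whether replicate numbers pair the samples could not be decided. Under 10 TPM in control, 12 of 15 members were called lower in spironolactone, beside 9.88% of all genes tested at any level. The part of depth in this was not tested. With no batch within which groups could be compared, the first code number and the group cannot be told apart.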
